A study of Homo sapiens with 12 samples.

Results

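Histone genes were followed across 12 RNA sequencing libraries of human lung cells. The members were the gene symbols of the 4 HIST clusters, named HIST1 to HIST4 by cluster and then by histone class, plus 6 histone genes outside the clusters (H2AFX, H2AFZ, H2AFJ, H3F3A, H3F3B and H1F0). Symbols whose ending marks a pseudogene (P or PS, with or without digits) were left out, which removed 15 symbols. This gave 80 members among 57152 genes with a value, of which 74 were cluster genes. GENCODE 29 still types 4 of the 80 as pseudogenes, HIST2H2BD among them.

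Cluster histone genes are the replication-dependent histone genes. Their usual messenger RNA is made in S phase, has no introns, and ends in a stem-loop bound by SLBP in place of a poly(A) tail. The same genes can also be read through to a downstream poly(A) signal, and such polyadenylated forms are known from differentiating and non-dividing cells. H3.3, H2A.Z, H2A.J and H1.0, the products of H3F3A and H3F3B, H2AFZ, H2AFJ and H1F0, are replacement histones made throughout the cell cycle from polyadenylated messages, and H2AFX (H2A.X) can make both kinds of message. Per the labels' protocols the libraries were made with a stranded mRNA kit, so that the values of cluster genes are those of messages that an mRNA selection retains. The stem-loop forms that make up most histone mRNA of a dividing cell were not analysed here. TPM per gene cannot tell any that were carried over from polyadenylated forms.

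The 12 libraries formed 4 groups of 3. LB cells, a line whose labelled source is A549, were grown with 10 mg/ml hydroxypropyl-beta-cyclodextrin (HPbCD, a cyclic sugar that binds cholesterol) from seeding and, 24 h later, given 10 µM amiodarone (a cationic amphiphilic antiarrhythmic drug) for 24 h. LB cells with 10 µM amiodarone for 24 h, LB cells with 0.1% DMSO as vehicle (LB DMSO) and A549 cells, a human lung adenocarcinoma line, with 0.1% DMSO (A549 DMSO) were the other groups. LB cells with HPbCD alone and A549 cells with amiodarone were not analysed here. Nothing in the labels says that the 3 libraries of a group came from separate cultures, so that the p-values below cover the spread among these libraries, which may be technical.

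The stem-loops of members on which the results turn are shown first, because a message that ends at this element has no poly(A) tail for an mRNA selection to hold. Whether some such messages were carried over into these libraries was not tested. The letters were read from GENCODE 29 transcripts (GRCh38), 5′ to 3′ on the strand of the gene, and capitals mark the 16 letters of the stem-loop. HIST2H2AA3 has it at chr1:149842213-149842242 (minus strand), HIST1H2AC at chr6:26124665-26124694 (plus), HIST2H2BE at chr1:149886178-149886207 (minus), HIST1H2BD at chr6:26158583-26158612 (plus), HIST1H3E at chr6:26225592-26225621 (plus), HIST1H4H at chr6:26285121-26285150 (minus), HIST2H4A at chr1:149833028-149833057 (plus) and H2AFX at chr11:119094888-119094917 (minus).
HIST2H2AA3: aaaaGGCTCTTTTCAGAGCCacccacgttt
HIST1H2AC: caaaGGCTCTTTTCAGAGCCcccctaccgt
HIST2H2BE: caaaGGCTCTTTTCAGAGCCacccacctaa
HIST1H2BD: caaaGGCTCTTTTAAGAGCCacgcatgttt
HIST1H3E: caaaGGCTCTTCTCAGAGCCaaccactttg
HIST1H4H: caaaGGCCCTTTTCAGGGCCgcccactttt
HIST2H4A: caaaGGCCCTTTTTAGGGCCgaccacttgc
H2AFX: caaaGGCCCTTTTAAGGGCCaccaccgccc

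These stem-loops lie in the 3′ UTR. The 16-letter histone stem-loop consensus, searched on the transcribed strand, was found in an annotated transcript of 33 of 76 protein-coding members, against 136 of all 19940 protein-coding genes (0.682%). The search reads only annotated transcripts, and 38 of the 74 cluster genes, the 4 typed as pseudogenes included, have no annotated 3′ UTR. A missing match thus does not show that a gene lacks the stem-loop. The form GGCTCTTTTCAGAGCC was the most common, in 18 members, all of class H2A, H2B or H3. The H4 genes carried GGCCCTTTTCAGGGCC (5 members) or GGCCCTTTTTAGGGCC (3 members), and H2AFX alone carried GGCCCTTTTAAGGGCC. For H2AFX the annotated transcript runs 1044 bases past the stem-loop, for HIST1H4H 1655 bases and for HIST1H2AC 1128 bases, whereas that of HIST2H2AA3 ends 35 bases after it.

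Expression was given as TPM, transcripts per gene scaled to a fixed library total, a length-corrected unit that lets levels be compared between genes. TPM keeps no read depth, so the counting error behind each value is unknown. The library sums lay between 999449 and 999632 TPM, 20966 to 22261 genes were above 0, and libraries of a group correlated at 0.985 to 0.989 on the log2(TPM + 1) scale. The summed epithelial markers (KRT8, KRT18, KRT19, EPCAM, CDH1) were at 2561 to 3223 TPM in the 9 LB libraries and at 7254 to 7791 TPM in A549 DMSO. The alveolar type II markers (SFTPB, SFTPC, SFTPD, ABCA3, NAPSA) summed to 1166 to 1578 TPM in LB cells and to 21.9 to 22.4 TPM in A549 DMSO. CD68, a lysosomal protein that also marks macrophages, averaged 83.3 TPM with amiodarone and HPbCD, 35.8 TPM with amiodarone, 26.5 TPM in LB DMSO and 11.2 TPM in A549 DMSO. CD14, a monocyte marker, ran the other way, with 0.907 TPM with amiodarone and HPbCD, 1.72 TPM with amiodarone, 2.51 TPM in LB DMSO and 4.76 TPM in A549 DMSO, while the leukocyte gene CD3E was listed at 0 in every library and PTPRC was at or near 0. The fibroblast markers (COL1A1, COL1A2, DCN, PDGFRB, LUM) summed to 6.35 to 7.20 TPM with amiodarone and HPbCD, 10.2 to 15.5 TPM with amiodarone, 10.5 to 11.3 TPM in LB DMSO and 3.39 to 5.65 TPM in A549 DMSO. Both that were tested, COL1A1 and LUM, were higher in LB DMSO than in A549 DMSO, and their part in the histone differences was not tested. Endothelial markers stayed under 1 TPM in every library (0.16 to 0.89 TPM, summed).

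Few cluster genes carried most of the signal. Of the 74, 28 reached a mean of 1 TPM over the 12 libraries and were tested, 12 reached 5 TPM and 8 reached 10 TPM. The 46 cluster genes below 1 TPM had means of 0 to 0.932 TPM with a median of 0.151 TPM, 35 of them were listed at 0 in at least 1 library, and 5 were listed at 0 in all. All 6 genes outside the clusters were tested. By class, 1 of 6 linker H1 cluster genes, 8 of 17 H2A, 10 of 22 H2B, 4 of 14 H3 and 5 of 15 H4 genes were tested.

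**Figure D1:**
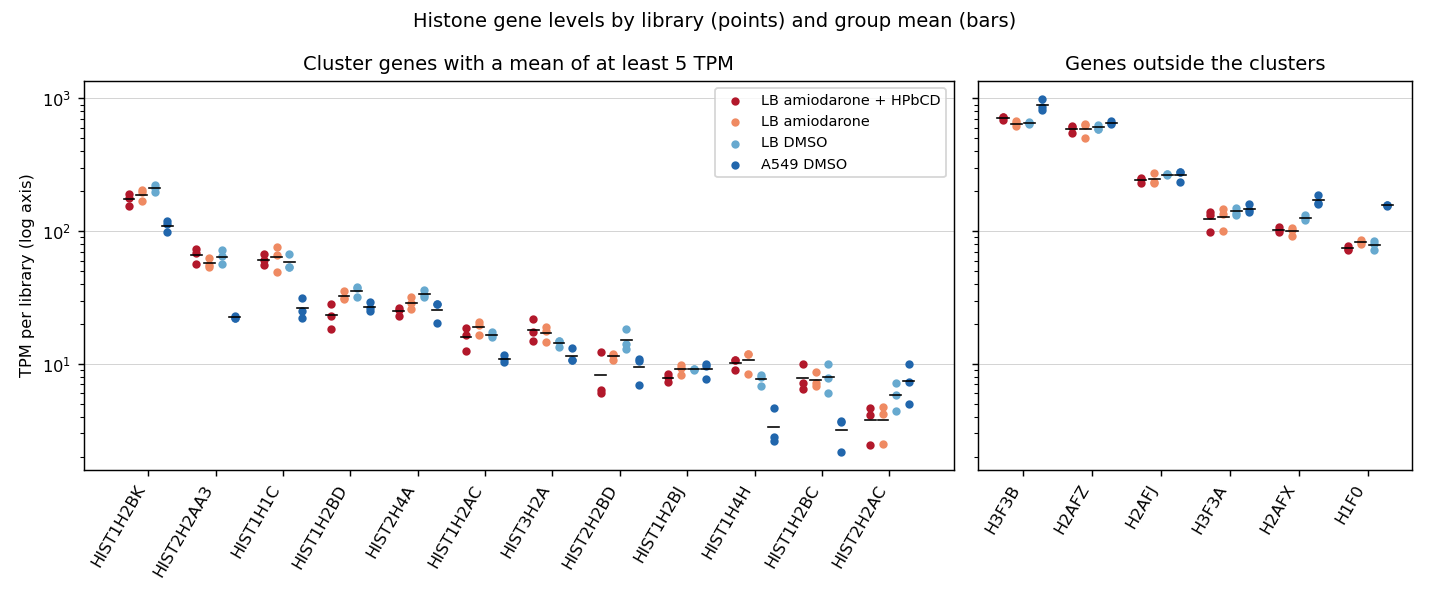
TPM per library on a log axis for the 12 cluster genes that average 5 TPM or more (left) and the 6 genes outside the clusters (right). Points are libraries, coloured by group, and bars are group means (n = 3). HIST1H2BK leads the cluster genes, at 154 to 225 TPM in LB libraries and 98.2 to 119.8 TPM in A549 DMSO, and H1F0 is the member outside the clusters whose LB libraries lie farthest below those of A549.

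HIST1H2BK, which encodes an H2B, was the most abundant cluster gene in each of the 12 libraries. It made up 34.5 to 38.7% of the summed TPM of the 74 cluster genes and 63.5 to 75.4% of the sum of the 22 H2B genes. HIST2H2AA3, which encodes an H2A, averaged 52.6 TPM over all libraries and HIST1H1C, which encodes the linker histone H1.2, averaged 52.3 TPM. These 3 genes together held 49.1 to 64.7% of the cluster sum. The H3 cluster genes summed to 9.87 to 19.95 TPM against 615 to 995 TPM for H3F3B alone. H2A cluster genes also summed to less than a single gene outside the clusters, at 62.85 to 131.97 TPM against 506 to 678 TPM for H2AFZ. The H1 cluster sum was 23.03 to 32.03 TPM in A549 DMSO, against 156 to 158 TPM for H1F0. In LB DMSO the H1 cluster sum was nearer to H1F0, at 54.14 to 68.39 TPM against 72.5 to 84.9 TPM.

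Levels differed with the annotated end of the transcript. A poly(A) signal (AATAAA or ATTAAA) stood in the last 50 bases of a transcript of 25 cluster genes, 19 of which were tested, and their median level was 3.70 TPM. The other 49 had a median of 0.221 TPM, and 9 of them were tested. HIST1H2BK (171 TPM on average) and HIST1H1C (52.3 TPM) were the highest of the 49, and their GENCODE 29 transcripts hold only the coding sequence, with no 3′ UTR and no stem-loop. This is a description of the annotation used here. Which annotation release the authors counted with is not stated in the sources used here.

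**Figure D2:**
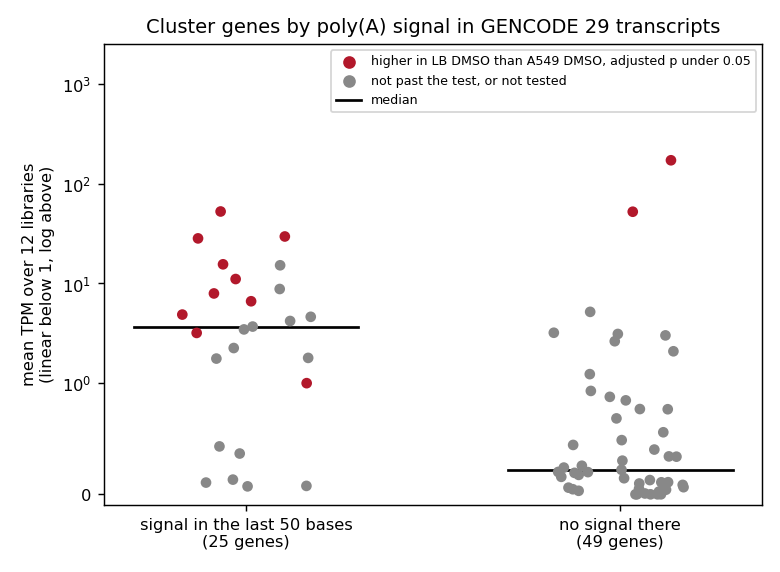
Mean TPM over the 12 libraries (linear below 1, log above) of 25 cluster genes with a poly(A) signal in the last 50 bases of a GENCODE 29 transcript and 49 without one. Each point is a gene, lines are medians (3.70 and 0.221 TPM), and red points were higher in LB DMSO than in A549 DMSO (10 and 2 genes).

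LB DMSO cells were compared with A549 DMSO cells, which carry the same vehicle and differ in the line. Many cluster histone messages were higher in LB DMSO cells, and those of H1F0, H3F3B and H2AFX were lower. Of the 28 cluster genes tested, 12 were higher in LB DMSO and 0 lower (limma on log2(TPM + 1), Benjamini-Hochberg adjusted p under 0.05). HIST2H2BF, 1 of the 12, averaged 0.55 TPM in A549 DMSO and met the filter of 1 TPM only through the LB libraries. Over all 13968 genes tested, 14.2% were higher and 18.2% lower, 32.4% in all, a balance that turned under both other scalings tried (2326 higher and 2163 lower with median-of-ratios scaling, 2373 and 2184 with quantile normalization, against 1979 and 2546). In 14 of the 28 every LB DMSO library lay above every A549 DMSO library, which was so for 18.6% of all genes. The median log2 difference of the 28 was 0.50, against -0.04 over all genes. Of the 6 genes outside the clusters, 0 were higher and 3 lower. In bulk RNA, a change in the share of cells making a message and a change in message per cell cannot be told apart.

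**Figure D3:**
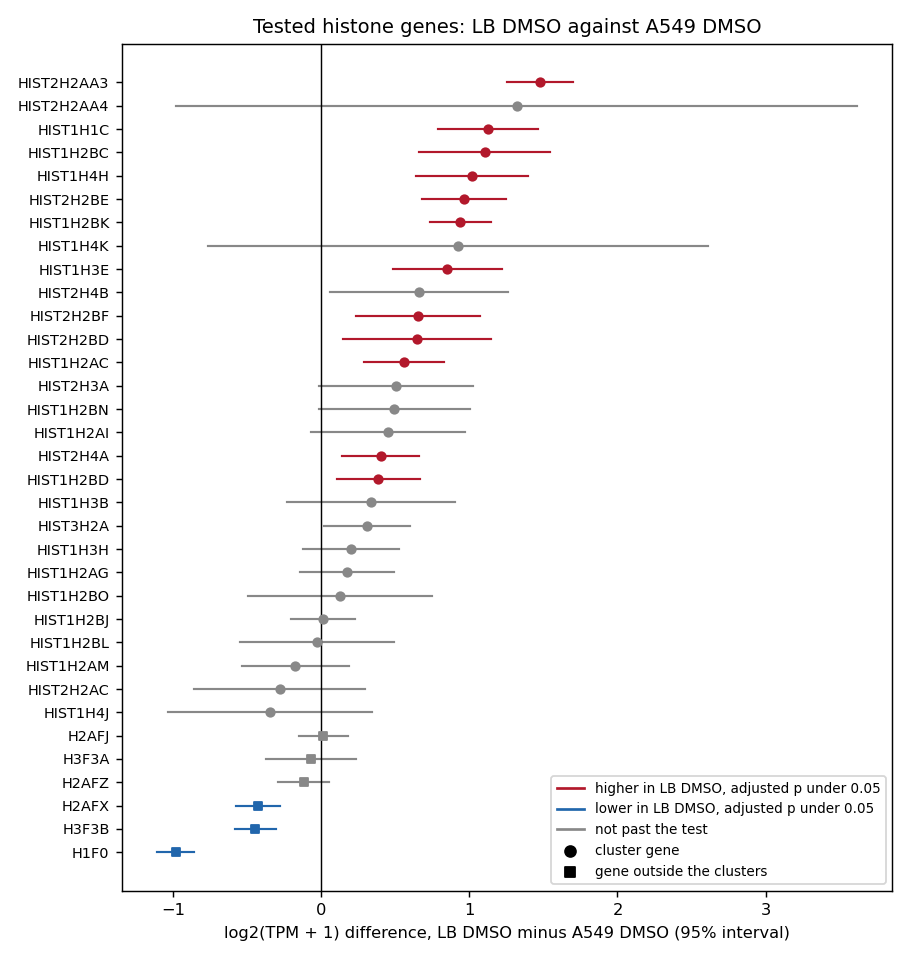
Difference in log2(TPM + 1), LB DMSO minus A549 DMSO, of the 34 tested members with 95% intervals from limma (n = 3 each). Red marks 12 members higher in LB DMSO and blue 3 lower at an adjusted p under 0.05, circles are cluster genes and squares genes outside the clusters. All 12 red points are circles and all 3 blue points are squares.

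The linker histone genes HIST1H1C and H1F0 differed in opposite directions. HIST1H1C had 53.8, 67.4 and 53.7 TPM in LB DMSO and 25.1, 22.4 and 31.4 TPM in A549 DMSO. The lowest LB DMSO library was thus well above the highest A549 one, with a log2 difference of 1.13 ± 0.16 (SE, limma, adjusted p = 1.41e-04). H1F0, which encodes H1.0, the linker histone known to accumulate in cells that have stopped dividing, had 84.9, 72.5 and 80.1 TPM in LB DMSO and 157, 156 and 158 TPM in A549 DMSO. Its log2 difference was -0.98 ± 0.058 (SE, limma, adjusted p = 9.47e-08), and the groups did not overlap. The ratio of HIST1H1C to H1F0 was 0.634, 0.930 and 0.671 in LB DMSO and 0.160, 0.144 and 0.198 in A549 DMSO. The other 5 linker genes of the cluster were below 1 TPM on average.

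H2B genes made up 6 of the 12 that were higher in LB DMSO. HIST1H2BK had 212, 225 and 199 TPM in LB DMSO and 113, 98.2 and 119.8 TPM in A549 DMSO, a log2 difference of 0.94 ± 0.095 (SE, limma, adjusted p = 1.11e-05). HIST1H2BC had 7.78, 10.0 and 6.04 TPM in LB DMSO and 3.69, 2.16 and 3.64 TPM in A549 DMSO, a log2 difference of 1.10 ± 0.20 (SE, limma, adjusted p = 0.00116). HIST2H2BE had 5.11, 6.54 and 4.84 TPM in LB DMSO and 1.99, 2.30 and 2.68 TPM in A549 DMSO (log2 difference 0.96 ± 0.13 SE, limma, adjusted p = 1.20e-04). All 3 are H2B genes whose LB DMSO libraries stood above every A549 DMSO library. HIST1H2BD was higher by less, with 37.1, 37.7 and 31.8 TPM in LB DMSO and 29.3, 26.3 and 25.2 TPM in A549 DMSO (log2 difference 0.39, limma, adjusted p = 0.0361). HIST2H2BD, typed as a transcribed pseudogene, had 18.4, 14.2 and 13.02 TPM in LB DMSO and 10.8, 10.6 and 6.87 TPM in A549 DMSO (log2 difference 0.65, limma, adjusted p = 0.0489), and HIST2H2BF averaged 1.44 TPM in LB DMSO and 0.55 TPM in A549 DMSO (adjusted p = 0.0204). With a mean of 1.004 TPM over the 12 libraries, HIST2H2BF met the filter of 1 TPM only through the LB libraries, so its call is no support for a difference. HIST1H2BJ, another H2B gene of the clusters, differed by less than the spread, with 9.14 ± 0.102 TPM in LB DMSO and 9.09 ± 1.18 TPM in A549 DMSO (SD, n = 3 each; limma, adjusted p = 0.937).

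The calls of HIST1H2BD, HIST2H2BD and HIST2H2BF depended on single libraries. HIST1H2BD lost its call without replicate 2 or 3 of A549 DMSO (limma, adjusted p = 0.0851 and 0.102) and without replicate 1 or 2 of LB DMSO (0.103 and 0.115). HIST2H2BF lost it without replicate 1 or 3 of A549 DMSO (0.0580 and 0.0609). HIST2H2BD lost it in 10 of the 12 fits that leave out a library, all but those without replicate 2 or 3 of amiodarone with HPbCD, with an adjusted p of up to 0.173.

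H2A genes of the clusters were led by HIST2H2AA3. It had 71.7, 64.7 and 56.4 TPM in LB DMSO and 22.8, 22.1 and 22.2 TPM in A549 DMSO, a log2 difference of 1.48 ± 0.10 (SE, limma, adjusted p = 4.41e-07) and the largest of the 34 members tested. Its transcript shares 100% of its 31-base words with HIST2H2AA4, a neighbouring copy listed at 0 in some libraries, and the split of reads between them is uncertain. The sum of the copies was 71.5 ± 4.09 TPM in LB DMSO and 25.04 ± 4.56 TPM in A549 DMSO (SD, n = 3 each), with a log2 difference of 1.49. HIST1H2AC had 16.5, 17.4 and 15.9 TPM in LB DMSO and 10.9, 10.3 and 11.6 TPM in A549 DMSO (log2 difference 0.56 ± 0.12 SE, limma, adjusted p = 0.00406). HIST3H2A also lay higher in every LB DMSO library, at 14.4 ± 0.832 TPM against 11.5 ± 1.38 TPM in A549 DMSO (SD, n = 3 each), but missed the threshold (limma, adjusted p = 0.0995). HIST2H2AC averaged 5.82 TPM in LB DMSO and 7.42 TPM in A549 DMSO, with overlapping libraries.

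H3 cluster genes were low, and the H4 class was led by HIST2H4A. HIST1H4H had 8.22, 7.93 and 6.82 TPM in LB DMSO and 4.66, 2.61 and 2.79 TPM in A549 DMSO (log2 difference 1.02 ± 0.17 SE, limma, adjusted p = 6.96e-04). HIST2H4A had 33.3, 32.2 and 35.7 TPM in LB DMSO and 28.4, 20.2 and 28.1 TPM in A549 DMSO (log2 difference 0.40, limma, adjusted p = 0.0214). Every LB DMSO library lay above every A549 DMSO library for both H4 genes. The HIST2H4A call was lost without replicate 2 of A549 DMSO (limma, adjusted p = 0.0611) and without replicate 3 of LB DMSO (0.0728). Summing HIST2H4A with its near-identical copy HIST2H4B gave 39.0 ± 2.53 TPM in LB DMSO and 28.5 ± 4.52 TPM in A549 DMSO (SD, n = 3 each, limma, adjusted p = 0.00742). Among H3 genes HIST1H3E averaged 3.62 TPM in LB DMSO and 1.58 TPM in A549 DMSO (log2 difference 0.85 ± 0.17 SE, limma, adjusted p = 0.00196), and HIST1H3B, HIST1H3H and HIST2H3A did not pass the test.

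Outside the clusters the replacement and damage-linked variants were not among the genes that were higher. H3F3B, 1 of 2 genes for H3.3, had 644, 648 and 670 TPM in LB DMSO and 822, 995 and 861 TPM in A549 DMSO (log2 difference -0.44 ± 0.063 SE, limma, adjusted p = 1.76e-04). H2AFX, whose product H2A.X is phosphorylated around DNA breaks, had 122, 125 and 132 TPM in LB DMSO and 161, 187 and 164 TPM in A549 DMSO (log2 difference -0.43 ± 0.068 SE, limma, adjusted p = 4.20e-04). All LB DMSO libraries were below all A549 DMSO libraries for both, which was so for 25.1% of all genes. H2AFZ, for the H2A.Z variant found at promoters, had 593, 593 and 631 TPM in LB DMSO and 637, 656 and 678 TPM in A549 DMSO (limma, adjusted p = 0.292, log2 difference -0.12), again with every LB DMSO library below. H2AFJ, for the H2A.J variant, had 269, 267 and 263 TPM in LB DMSO and 280.2, 234 and 279.9 TPM in A549 DMSO (adjusted p = 0.902, log2 difference 0.02). Neither passed the test. H3F3A had 151, 133 and 138 TPM in LB DMSO and 145, 139 and 159 TPM in A549 DMSO (limma, adjusted p = 0.741).

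The level of H3F3A itself is uncertain. The table also lists H3F3AP4, a processed copy of H3F3A. In the transcript pair of the 2 that shares most, 100% of the 31-base words of the smaller set were in the other. H3F3AP4 stood at 539 ± 26.0 TPM in LB DMSO and 603 ± 24.8 TPM in A549 DMSO (SD, n = 3 each), above H3F3A. With both rows summed, an alternative chosen after seeing the data, the level was 679 ± 24.1 TPM in LB DMSO and 751 ± 33.5 TPM in A549 DMSO, a log2 difference of -0.14 that passed the test (limma, adjusted p = 0.0467).

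Summed over the 74 cluster genes, LB DMSO libraries had 548, 594 and 519 TPM and A549 DMSO libraries 327, 285 and 335 TPM. The mean of LB DMSO was 1.75 times that of A549 DMSO, and without HIST1H2BK, HIST2H2AA3 and HIST1H1C it was 1.40 times, with no overlap in either sum. By class the ratio of LB DMSO to A549 DMSO was 2.19 for H1, 1.85 for H2A, 1.75 for H2B, 1.60 for H3 and 1.38 for H4, and no class overlapped between the groups. Of all single genes tested, 18.6% lay above A549 DMSO without overlap. Single genes weighed heavily in 3 classes. HIST1H1C held 58.3 of 59.0 TPM of the H1 sum in LB DMSO and 26.3 of 26.9 TPM in A549 DMSO. HIST2H2AA3 held 64.3 of 121.7 TPM of the H2A sum in LB DMSO and 22.4 of 65.7 TPM in A549 DMSO. HIST1H2BK held 72.0% of the H2B sum in LB DMSO and 65.6% in A549 DMSO. The 6 genes outside the clusters summed to 1873 ± 38.2 TPM in LB DMSO and 2290 ± 83.0 TPM in A549 DMSO (SD, n = 3 each). All 80 members together summed to 2412 to 2434 TPM in LB DMSO and 2529 to 2651 TPM in A549 DMSO, so that the higher cluster sum stood beside a lower total. No test was made on sums.

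**Figure D4:**
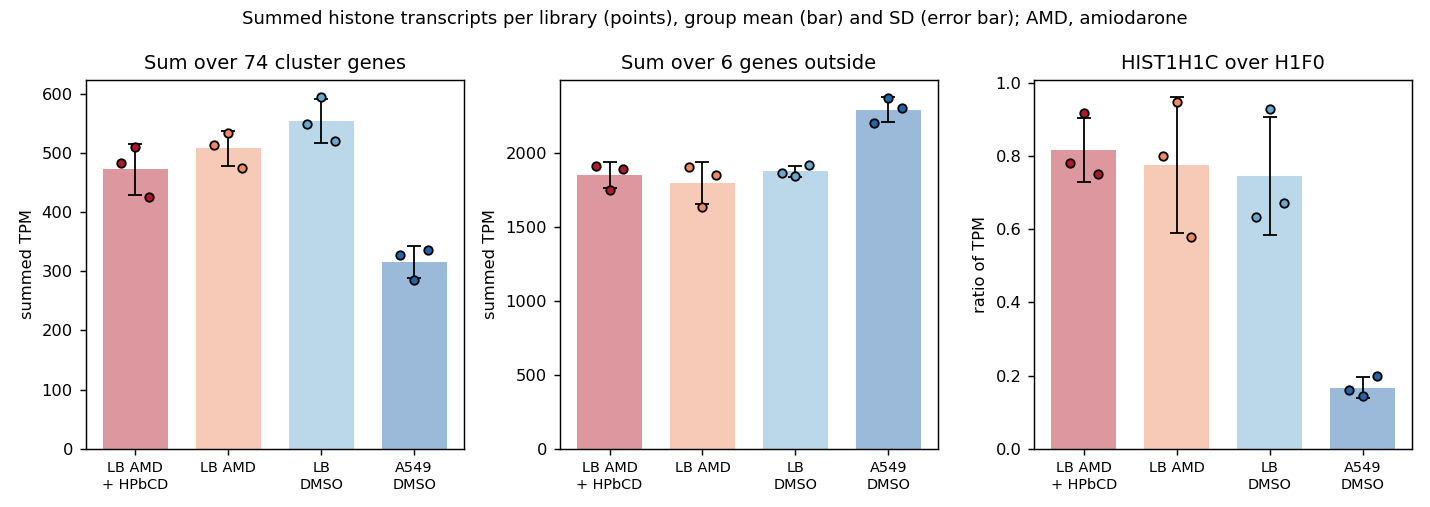
Summed TPM of the 74 cluster genes (left) and of the 6 genes outside the clusters (middle), and the ratio of HIST1H1C to H1F0 (right). Points are libraries, bars group means and error bars SD (n = 3). The cluster sum is 425 to 594 TPM in LB libraries and 285 to 335 TPM in A549 DMSO.

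Position along the chromosomes showed where these genes sit. HIST1 lies on chromosome 6 in 2 blocks, between 25726132 and 26285638 and between 27125897 and 27893843 (GRCh38). In the first block 7 of 34 members were tested and 6 were higher in LB DMSO, with a median log2 difference of 0.85. In the second block 11 of 21 were tested, HIST1H2BK was the only one of them that was higher, and the median log2 difference of the 11 was 0.17. HIST1H2AI, also of this block, passed the test only when summed with its near-copy HIST1H2AJ (limma, adjusted p = 0.0257). HIST2, on chromosome 1, had 9 of 14 tested and 5 higher, with a median of 0.65. Over all genes tested 14.2% were higher, with a median of -0.04. The split by block was made after the values were seen and is given without a test.

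**Figure D5:**
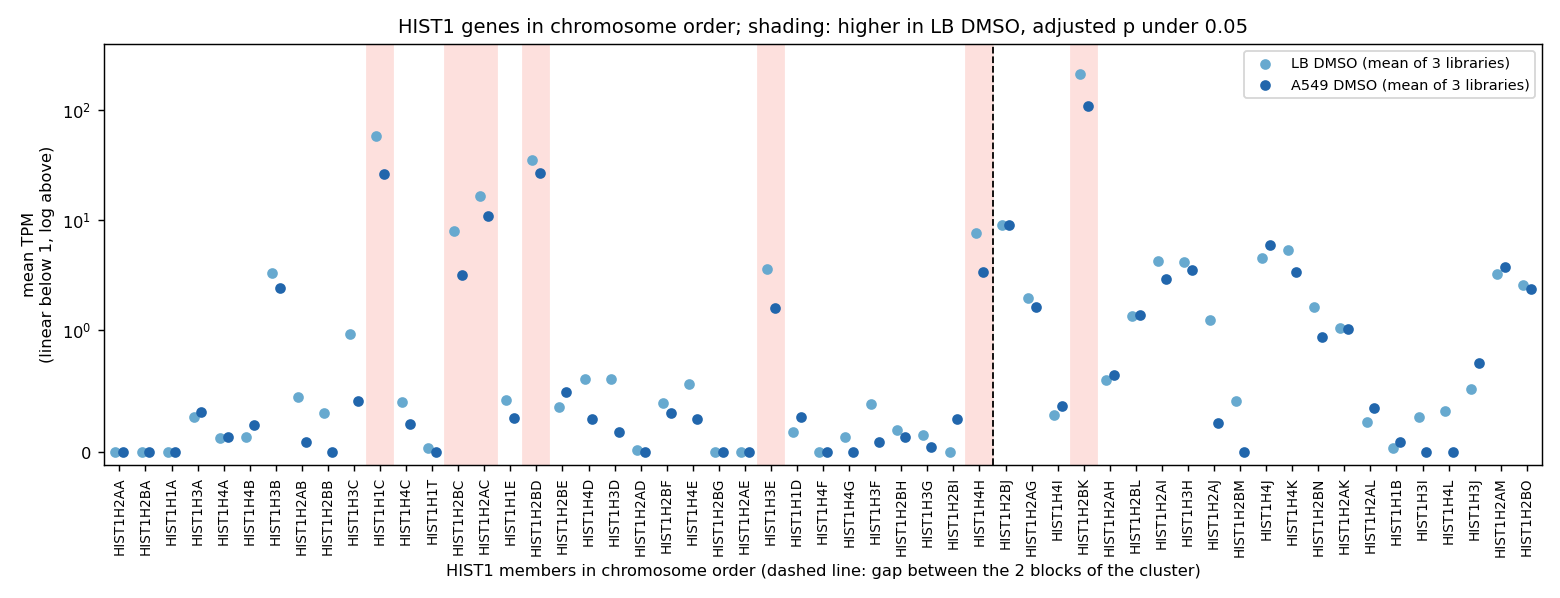
Mean TPM (linear below 1, log above) of the 55 HIST1 members in chromosome order in LB DMSO and A549 DMSO (n = 3 each). Shading marks the 7 genes higher in LB DMSO at an adjusted p under 0.05, of which 6 lie left of the dashed line and HIST1H2BK right of it.

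H2A and H2B genes often lie head to head, and their levels within a pair were far apart in some pairs and near each other in others. HIST1H2BK averaged 171 TPM over the 12 libraries and HIST1H2AH, which starts 330 bases away on the other strand, 0.684 TPM. HIST3H2A averaged 15.2 TPM and HIST3H2BB, 233 bases away, 0.303 TPM. In other pairs both genes averaged above 1 TPM. HIST1H2BC averaged 6.64 TPM and HIST1H2AC 15.6 TPM across 218 bases, HIST2H2AA3 averaged 52.6 TPM and HIST2H2BD 11.1 TPM across 138 bases, and HIST2H2BE and HIST2H2AC stood at 4.88 and 5.20 TPM across 322 bases. In the pair of HIST1H2BC and HIST1H2AC both genes were higher in LB DMSO, and so were both in the pair of HIST2H2AA3 and HIST2H2BD. The pair of HIST2H2BE and HIST2H2AC differed in sign, as HIST2H2BE was higher (log2 difference 0.96) while HIST2H2AC had a log2 difference of -0.28 and did not pass the test (limma, adjusted p = 0.458). In the pair of HIST1H2BJ and HIST1H2AG neither gene passed it, with log2 differences of 0.01 and 0.17. On their own, none of HIST1H2BL, HIST1H2AI, HIST1H2AM and HIST1H2BO, which form 2 more such pairs, passed it. Summed with its near-copy HIST1H2AJ, HIST1H2AI was higher, at 5.52 ± 1.34 TPM in LB DMSO and 3.17 ± 1.07 TPM in A549 DMSO (SD, n = 3 each, limma, adjusted p = 0.0257).

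Promoters of 3 genes that were higher in LB DMSO are shown because they carry the known elements of their classes. The letters are the 150 bases before the RefSeq start (GRCh38.p14), 5′ to 3′ on the strand of the gene, and capitals mark matches on either strand to the CCAAT box, the TATA box, the octamer (the site of the factor POU2F1) and the H1 box, whose letters are given with their counts. HIST1H1C is at chr6:26056471-26056620 (minus strand), HIST1H2AC at chr6:26124022-26124171 (plus) and HIST1H2BK at chr6:27146859-27147008 (minus).
HIST1H1C: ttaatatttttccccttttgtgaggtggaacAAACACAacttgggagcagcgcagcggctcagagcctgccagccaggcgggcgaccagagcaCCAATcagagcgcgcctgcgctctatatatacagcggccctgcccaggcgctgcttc
HIST1H2AC: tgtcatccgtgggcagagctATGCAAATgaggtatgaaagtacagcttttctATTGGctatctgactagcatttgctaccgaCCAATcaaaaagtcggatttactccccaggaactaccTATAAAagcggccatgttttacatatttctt
HIST1H2BK: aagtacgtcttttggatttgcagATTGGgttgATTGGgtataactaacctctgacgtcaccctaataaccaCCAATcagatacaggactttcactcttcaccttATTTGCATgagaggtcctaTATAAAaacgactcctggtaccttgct

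RefSeq promoters were matched for 65 members, 60 of them cluster genes, and both strands of the 250 bases before the start were searched, each motif on its own whether or not matches overlapped. The octamer ATTTGCAT stood in 21 of 60 cluster promoters (35.0%), against 1.66% of all 27305 promoters, in 11 of 16 H2A genes, 9 of 13 H2B genes and 0 of 13 H4 genes. CCAAT was in 50 of 60 (83.3%), against 33.0% of all, TATAAA in 40 of 60 (66.7%), against 11.1%, and AAACACA in 6 of 60, all H1 genes (10.0%), against 4.95%. The octamer was in 4 of the 10 promoters of genes that were higher in LB DMSO and in 5 of 16 of those tested and not called. CCAAT was in 8 of the 10 and in 13 of the 16. These matches describe letters, not binding.

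Genes that serve histone messages were compared in the same way. S phase genes, which rise with histone mRNA in dividing cells, were lower in LB DMSO than in A549 DMSO for 31 of 40 tested and higher for 0, with a median log2 difference of -0.33. Over all genes the shares were 18.2% lower and 14.2% higher, and the median was -0.04. PCNA, the replication clamp, averaged 345 ± 14.6 TPM in LB DMSO and 477 ± 34.7 TPM in A549 DMSO (SD, n = 3 each; limma, adjusted p = 3.44e-04). GINS2, of the replicative helicase, averaged 19.8 ± 1.86 TPM in LB DMSO and 36.8 ± 4.04 TPM in A549 DMSO (limma, adjusted p = 1.23e-04). CDKN1A, which encodes the p21 inhibitor of cyclin-dependent kinases, was higher at 182 ± 32.1 TPM in LB DMSO and 68.3 ± 12.3 TPM in A549 DMSO (limma, adjusted p = 6.62e-05). It was the 1 higher of 6 cell cycle arrest genes tested, of which 3 were lower (CDKN2C, RB1 and RBL2), and the median log2 difference of the 6 was -0.20. The cluster genes thus differed in the direction opposite to most S phase genes, and the part of the cell cycle in their difference was not tested.

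Of 27 genes tested for factors that transcribe histone genes or process their messages, 8 were lower in LB DMSO and 1 higher, with a median log2 difference of -0.15, against 18.2% lower and 14.2% higher over all genes and a median of -0.04. SLBP, which binds the stem-loop, averaged 64.8 ± 5.26 TPM in LB DMSO and 77.2 ± 8.69 TPM in A549 DMSO (SD, n = 3 each; limma, adjusted p = 0.0422), with overlapping libraries. CPSF3, the endonuclease that cuts histone and polyadenylated messages alike, averaged 37.4 ± 1.08 TPM in LB DMSO and 52.7 ± 3.78 TPM in A549 DMSO (adjusted p = 4.91e-05). The 1 gene higher was NELFE, of the negative elongation complex, at 88.4 ± 3.31 TPM in LB DMSO and 67.5 ± 2.27 TPM in A549 DMSO (limma, adjusted p = 3.39e-05). NPAT, CASP8AP2 and HINFP, which act in histone gene transcription, did not pass the test (limma, adjusted p = 0.0705, 0.901 and 0.240). Of 12 histone mRNA decay genes tested, 1 was lower (UPF1) and 0 higher, against the same 18.2% and 14.2% over all genes.

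Histone chaperones and the other variants were also lower more often than higher. Among 26 chaperones, 13 were lower in LB DMSO and 2 higher, where all genes tested were also more often lower (18.2%) than higher (14.2%). HJURP, the chaperone of the centromeric H3 variant, averaged 47.3 ± 2.08 TPM in LB DMSO and 84.3 ± 7.45 TPM in A549 DMSO (SD, n = 3 each; limma, adjusted p = 8.60e-06), and CENPA, which encodes that variant, 32.8 ± 3.29 TPM in LB DMSO and 52.5 ± 1.88 TPM in A549 DMSO (adjusted p = 7.34e-04). ASF1B, an H3-H4 chaperone of dividing cells, averaged 32.2 ± 1.39 TPM in LB DMSO and 52.7 ± 2.001 TPM in A549 DMSO (limma, adjusted p = 1.80e-05), while its paralogue ASF1A was higher at 13.5 ± 1.31 TPM in LB DMSO and 10.1 ± 1.71 TPM in A549 DMSO (adjusted p = 0.0135). All 5 other histone variant genes tested, CENPA, H2AFV, H2AFY, H2AFY2 and H1FX, were lower in LB DMSO.

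Amiodarone was compared with vehicle in LB cells. No cluster gene passed the test. Of the 34 members, 0 were higher and 1 lower with amiodarone (limma, adjusted p under 0.05). Over all genes 4.90% were higher and 3.72% lower at that threshold, 8.62% in all. Without adjustment 3 of the 34 had a p under 0.05. All genes were not counted at that level, so no excess or lack among the members can be read from it. The 1 member past the test was H2AFX, with 106, 92.1 and 101 TPM with amiodarone and 122, 125 and 132 TPM in LB DMSO. Every amiodarone library was below every LB DMSO library, and the log2 difference was -0.34 ± 0.068 (SE, limma, adjusted p = 0.00885). HIST1H4H was above in every library, with 11.9, 11.8 and 8.40 TPM with amiodarone and 8.22, 7.93 and 6.82 TPM in LB DMSO, and did not pass the test (limma, adjusted p = 0.165). HIST1H4K, 1 of a near-identical pair, was listed at 0 in some libraries and missed it too (limma, adjusted p = 0.123). In 1 of the 34 members every amiodarone library lay above every LB DMSO library, and in 4 below. Over all genes the shares were 15.2% above and 14.8% below.

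The cluster sum was 513, 533 and 475 TPM with amiodarone and 548, 594 and 519 TPM in LB DMSO, which overlap. Without HIST1H2BK, HIST2H2AA3 and HIST1H1C it was 196, 192 and 204 TPM with amiodarone and 210.3, 237 and 210.3 TPM in LB DMSO, 0.900 times the LB DMSO mean with no overlap. The H2A sum did not overlap either, at 0.907 times the LB DMSO mean, while the H1, H2B, H3 and H4 sums overlapped. Of all single genes tested, 14.8% lay below LB DMSO without overlap. H3F3A did not pass on its own, but with H3F3AP4 summed it was lower at 583 ± 26.6 TPM with amiodarone and 679 ± 24.1 TPM in LB DMSO (SD, n = 3 each; log2 difference -0.22, limma, adjusted p = 0.0193). H1FX, a linker variant outside the rule, averaged 109.9 ± 6.57 TPM with amiodarone and 129 ± 4.19 TPM in LB DMSO (limma, adjusted p = 0.0204). Of the S phase genes 15 of 40 were lower with amiodarone and 0 higher, MCM5 among them at 87.75 ± 6.20 TPM with amiodarone and 124 ± 6.50 TPM in LB DMSO (limma, adjusted p = 6.32e-04). Of the chaperones 7 of 26 were lower and 0 higher, and of the processing and transcription factors 4 of 27 were lower and 0 higher. Over all genes 3.72% were lower and 4.90% higher. SLBP did not pass the test (adjusted p = 0.816).

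HPbCD added to amiodarone was compared with amiodarone alone. Of the 34 members 0 passed the test (limma), and over all genes 2.71% were higher and 1.36% lower by the same test, 4.07% in all. Without adjustment 6 of the 34 had a p under 0.05. All genes were not counted at that level, so no excess or lack among the members can be read from it. HIST1H2BD came nearest to passing the test, with 23.1, 28.2 and 18.2 TPM with amiodarone and HPbCD and 31.1, 31.5 and 35.1 TPM with amiodarone. Every library with HPbCD lay below every library with amiodarone alone, which was so for 12.2% of all genes. The log2 difference was -0.49 ± 0.13 (SE, limma, adjusted p = 0.0547). HIST1H2AM followed, at 2.04 ± 0.534 TPM with amiodarone and HPbCD and 3.49 ± 0.745 TPM with amiodarone (SD, n = 3 each; adjusted p = 0.0850), a gene that overlaps the annotated span of HIST1H3J on the same strand and shares 87.1% of its 31-base words with it. Outside the clusters H3F3B had 726, 684 and 725 TPM with amiodarone and HPbCD and 674, 615 and 649 TPM with amiodarone (adjusted p = 0.271), and H1F0 had 77.8, 72.7 and 73.4 TPM with amiodarone and HPbCD and 82.2, 79.7 and 85.7 TPM with amiodarone (adjusted p = 0.213). H2AFX stood at 102, 98.3 and 107 TPM with amiodarone and HPbCD and at 106, 92.1 and 101 TPM with amiodarone. Of the S phase genes 0 of 40 passed the test. The log2 difference was negative for 24 of the 34 members and positive for 10. In 5 every library with HPbCD lay below every library with amiodarone alone and in 1 above, against 12.2% and 12.9% of all genes. The H3 sum (0.761 times the amiodarone mean), the H4 sum (0.862) and the cluster sum without HIST1H2BK, HIST2H2AA3 and HIST1H1C (0.868) lay below without overlap. The H1, H2A, H2B and whole cluster sums overlapped.

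Amiodarone with HPbCD was also compared with LB DMSO, a comparison that shares its libraries with the others. Of the 34 members 0 were higher and 5 lower (limma), against 10.1% higher and 7.81% lower over all genes by the same test, 17.9% in all. Without adjustment 10 of the 34 had a p under 0.05. All genes were not counted at that level, so no excess or lack among the members can be read from it. Of the 28 cluster genes 4 were lower, 21 had a negative log2 difference, and the median was -0.29, against -0.02 over all genes. HIST1H2BD had 23.1, 28.2 and 18.2 TPM with amiodarone and HPbCD and 37.1, 37.7 and 31.8 TPM in LB DMSO (log2 difference -0.61 ± 0.13 SE, limma, adjusted p = 0.00592). H2AFX had 102, 98.3 and 107 TPM with amiodarone and HPbCD and 122, 125 and 132 TPM in LB DMSO (log2 difference -0.31 ± 0.068 SE, limma, adjusted p = 0.00829). In 11 of the 34 every library with amiodarone and HPbCD lay below every LB DMSO library, these 2 included, which was so for 20.1% of all genes. Both calls were kept in each fit that left out a library.

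The other 3 calls depended on single libraries. HIST2H4A had 26.2, 25.6 and 22.9 TPM with amiodarone and HPbCD and 33.3, 32.2 and 35.7 TPM in LB DMSO (log2 difference -0.43, limma, adjusted p = 0.0272). It lost the call without replicate 1 or 3 of LB DMSO (adjusted p = 0.0662 and 0.0917) and without replicate 1, 2 or 3 of amiodarone with HPbCD (0.0511, 0.0548 and 0.0985), and summed with HIST2H4B it was at 27.5 ± 1.18 TPM with amiodarone and HPbCD and 39.0 ± 2.53 TPM in LB DMSO (SD, n = 3 each; adjusted p = 0.00893). HIST2H2BD had 6.35, 6.03 and 12.4 TPM with amiodarone and HPbCD and 18.4, 14.2 and 13.02 TPM in LB DMSO (log2 difference -0.86, limma, adjusted p = 0.0220), and lost the call without replicate 1 of LB DMSO (0.0895) and without replicate 1 or 2 of amiodarone with HPbCD (0.0896 and 0.0846). For both genes every library with amiodarone and HPbCD lay below every LB DMSO library. HIST1H3H averaged 2.71 ± 0.530 TPM with amiodarone and HPbCD and 4.20 ± 0.522 TPM in LB DMSO (SD, n = 3 each; limma, adjusted p = 0.0396), a call lost without replicate 1 or 2 of LB DMSO (0.126 and 0.110) or replicate 1 or 2 of amiodarone with HPbCD (0.147 and 0.0940).

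HIST1H2BK lay below LB DMSO in every library, with 178, 189 and 154 TPM with amiodarone and HPbCD and 212, 225 and 199 TPM in LB DMSO, and missed the threshold (log2 difference -0.29, limma, adjusted p = 0.0564). HIST2H2AA3, at 73.3, 68.7 and 56.5 TPM with amiodarone and HPbCD, and HIST1H1C, at 60.8, 66.7 and 55.2 TPM, overlapped with their LB DMSO libraries. By class, the H1 and H2A sums overlapped with those of LB DMSO, and the H2B, H3 and H4 sums did not, at 0.798, 0.688 and 0.757 times the LB DMSO mean. The sum over all cluster genes was 482, 509 and 425 TPM with amiodarone and HPbCD and 548, 594 and 519 TPM in LB DMSO, 0.853 times the LB DMSO mean with no overlap. Without HIST1H2BK, HIST2H2AA3 and HIST1H1C it was 0.781 times that mean, also with no overlap. Of all single genes tested, 20.1% lay below LB DMSO without overlap. Of the S phase genes 20 of 40 were lower with amiodarone and HPbCD than in LB DMSO and 0 higher, POLA2 among them at 18.6 ± 3.70 TPM with amiodarone and HPbCD and 29.5 ± 1.01 TPM in LB DMSO (SD, n = 3 each; limma, adjusted p = 0.00198). Of the chaperones 9 of 26 and of the processing and transcription factors 6 of 27 were lower and 0 higher. Over all genes 7.81% were lower and 10.1% higher.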

How the data were processed

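The submitters' processing notes name RSEM 1.3.1, STAR 2.7.3a and GRCh38 as build, and per the labels' protocols the libraries were stranded mRNA libraries. The deposited table gives TPM per gene symbol and library. RSEM divides reads shared between genes by estimation, so copies of near-identical sequence are uncertain. Of 57189 rows, 37 hold no value. TPM keeps no depth, so no count model was used and no counting interval can be had.

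Genes averaging 1 TPM or more (13968) were transformed as log2(TPM + 1), which understates changes of low genes, and fitted with limma 3.58.1 in R 4.3.3 (4 group means, 8 residual degrees of freedom, mean-variance trend). Tests were two-sided, with Benjamini-Hochberg adjustment over all tested genes in each comparison and a threshold of 0.05. The fit was also run on simulated data with independent normal noise, set to the spread of these libraries. That simulation holds no counting error, no reads shared between copies and no library effects, so it does not bear on those limits.

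Values per library are given for members past the test with at least 5 TPM in the higher group and for the 6 genes outside the clusters. From each other list up to 6 genes with the largest change past the test could be named, plus SLBP, NPAT, CASP8AP2, HINFP, PCNA, MCM2 and CDKN1A. Members outside this rule were named after their values were seen. The members and lists were chosen with earlier results of these data known. Annotation and transcripts came from GENCODE 29. Members were compared by 31-base words of their transcripts, as the share of the smaller word set found in the other, for the transcript pair sharing most. Alternatives were pseudocounts of 0.1 and 5, no filter or 5 TPM, median-of-ratios scaling, quantile normalization, no trend, only the groups compared, a replicate block, leaving out each library and, added after seeing the data, summed copies. The summed leukocyte marker list is not reported here.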

Additional observations from a re-analysis of the deposited data

How the results depend on the processing

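In LB DMSO against A549 DMSO, 11 of 15 calls were kept under every alternative, and leaving out 1 library gave 9 to 12 members higher and 3 lower. With amiodarone against LB DMSO, 2 members were lower, not 1, with only the 2 groups compared and with copies summed, while over all genes the count lower was 520 in the reported fit, 330 with no filter, 329 with no trend and 200 to 671 with 1 library left out, and the count higher was 684, or 425 to 826. For amiodarone with HPbCD against amiodarone, 1 member was lower, not 0, with a filter at 5 TPM and with quantile normalization, and 0 to 1 with 1 library left out; over all genes 190 were lower, 106 with no filter and 82 to 302 with 1 left out, and 378 higher, or 192 to 523. Against LB DMSO, 5 members were lower with amiodarone and HPbCD, 3 with no filter and 2 to 7 with 1 left out, and 1091 of all genes, or 671 to 1272. The cause was not tested. Scaling moved the median of all genes by less than 0.1, and no member past the test changed direction under any alternative run.

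Deviations of same-numbered libraries from their group means correlated at -0.03 to 0.21. Libraries of different number were not compared in this way, so these values cannot say whether replicate numbers pair the samples. With the replicate number as a block, 11 members were higher and 3 lower in LB DMSO than in A549 DMSO, 0 and 1 with amiodarone, 0 and 0 with HPbCD added, and 0 and 5 with amiodarone and HPbCD against LB DMSO; HIST2H2BD (adjusted p = 0.0724, limma) lost its call against A549 DMSO and HIST1H3H (0.0529) against LB DMSO. TPM gives no depth, so low members are limited by an unknown counting error.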
